A study of Mus musculus with 15 samples.

Results

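Injured lungs of mice with the R213G form of extracellular superoxide dismutase (EC-SOD) were compared with injured lungs of WT mice, across all miRNAs that the small RNA libraries measured well enough. The comparison uses 8 of the 15 libraries in the study: 4 from R213G mice given bleomycin (R213G bleomycin) and 4 from WT mice given bleomycin (WT bleomycin). Of 1424 mature miRNAs in the deposited table, 818 were tested, namely those whose value without the logarithm was above 5 in at least 3 of the 15 libraries. The other 606 lay below that limit and were not tested.

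All mice were C57BL/6, WT or homozygous for R213G on that background, and the labels give an age of 11 weeks. A single intratracheal dose of 100 uL held bleomycin at 1 U/mL in phosphate-buffered saline (PBS), and whole lungs were collected on day 7 after a PBS flush of the vessels and then frozen. Uninjured lungs of both genotypes, given PBS alone, are quoted beside the results (WT PBS, n = 3; R213G PBS, n = 4). Both sexes were used, but which mouse was male or female is not stated in the sources used here. The library names carry tag numbers, and those of R213G and WT come from separate ranges, so genotype cannot be told apart from the tag range either. The variant itself lies in the Sod3 gene and cannot be read from small RNA values. Nothing states that the libraries of a group are separate mice, so p-values here measure only the spread between these samples.

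EC-SOD is the secreted antioxidant enzyme that removes superoxide outside cells, and in lung it is held on the matrix by a positively charged tail. The R213G substitution lies in that tail and loosens the binding, so more of the enzyme is found in extracellular fluids. Bleomycin breaks DNA through oxidant chemistry and is a standard way to injure the mouse lung, with inflammation first and fibrosis later. A miRNA is a short RNA that lowers its target mRNAs, which it finds mainly through bases 2 to 8 of its own sequence, called the seed. Most hairpins give a 5p and a 3p strand, and these have different seeds.

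The sequences below show the Htr2c-intron miRNAs that have a RefSeq entry, which are described first. After them come 2 red cell miRNAs, 2 lower miRNAs whose groups did not overlap, and both strands of the injury miRNA miR-21a. They were read 5′ to 3′ from RefSeq (GRCm38.p6), with the seed in capitals. The first 7 lie in introns of the serotonin receptor gene Htr2c on chromosome X, which spans 146962513 to 147197277 in GRCm38.
miR-1298-5p: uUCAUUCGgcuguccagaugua
miR-1298-3p: cAUCUGGGcaacugauugaacu
miR-448-3p: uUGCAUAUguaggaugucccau
miR-448-5p: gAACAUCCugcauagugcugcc
miR-1264-3p: cAAAUCUUauuugagcaccugu
miR-1912-3p: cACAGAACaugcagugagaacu
miR-764-3p: aGGAGGCCauaguggcaacugu
miR-451a: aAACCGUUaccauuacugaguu
miR-144-3p: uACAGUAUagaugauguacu
miR-423-3p: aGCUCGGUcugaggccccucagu
miR-369-5p: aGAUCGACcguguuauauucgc
miR-21a-5p: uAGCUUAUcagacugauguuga
miR-21a-3p: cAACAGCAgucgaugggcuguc
No 2 of the Htr2c miRNAs with an entry share a seed. Mature miR-1298-5p lies at chrX:147064918-147064939 (plus strand), inside an Htr2c intron. The mature miR-451a lies at chr11:78073186-78073207 (plus strand). The hairpin of miR-423 lies in an intron of Nsrp1 on chromosome 11, and that of miR-369 in the noncoding host gene Mirg on chromosome 12.

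Values below are levels on the scale of log2(1 + value), and differences are R213G minus WT on that scale. No miRNA differed between R213G and WT after bleomycin in limma at an adjusted p under 0.05: 0 of 818, or 0%. The smallest adjusted p was 0.219. At an unadjusted p under 0.05 there were 97 miRNAs (11.9% of those tested), of which 54 were higher in R213G (6.60%) and 43 lower (5.26%). In 45 miRNAs the 4 R213G libraries lay wholly above or below the 4 WT libraries (5.50%), 25 with R213G higher (3.06%) and 20 with R213G lower (2.44%). By sign alone, 395 were higher (48.3%) and 423 lower (51.7%), and the median difference was -0.01. In PBS lungs 0 of 818 (0%) differed by genotype at an adjusted p under 0.05, with 44 (5.38%) at an unadjusted p under 0.05 and 56 (6.85%) with groups that did not overlap. The interaction, which tests whether the genotype difference after bleomycin differs from that after PBS, gave 0 (0%) and 65 (7.95%).

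**Figure D1:**
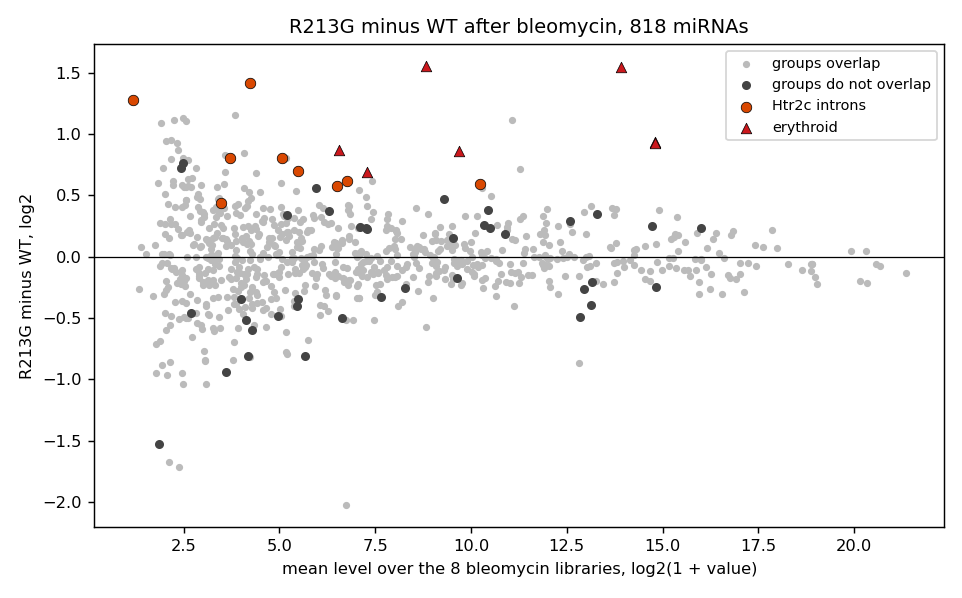
Difference between R213G and WT bleomycin lungs (vertical axis, log2) against the mean level over the 8 bleomycin libraries (horizontal axis, log2(1 + value)) for 818 miRNAs. Each point is 1 miRNA, dark points mark groups that do not overlap, and the coloured circles and triangles mark all Htr2c-intron and erythroid miRNAs whether or not their groups overlap. Both coloured sets lie above 0, and the scatter is wider at low levels.

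How precisely a difference was measured depended on the level. The 95% confidence interval had a median half-width of 0.48 over all tested miRNAs. Among the 294 with a mean level above 8, it was 0.27, and for 282 of them (95.9%) the interval lay within 1 log2 unit of 0 on either side. Among the 326 with a mean level of 5 or less, the half-width was 0.78, and 12 of the 16 differences larger than 1 log2 unit were found there. Since read depth is unknown, no counting interval can be given.

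The libraries themselves were not alike. Values summed to between 18087289.8 and 21189039.9 per bleomycin library, and the top miRNA of each was miR-143-3p, which smooth muscle makes. On the first principal component of the 8 libraries (30.8% of the variance), R213G bleomycin replicate 3 stood at -12.62 and WT bleomycin replicate 1 at 12.55, and the other 6 between -3.48 and 4.02. The second component (17.5%) put replicates 1 and 3 of both genotypes, which carry the lower tag numbers, at -6.54 to -2.98 and replicates 2 and 4 at 3.32 to 6.67. Values of exactly 0 numbered 61 to 82 in the former libraries and 218 to 271 in the latter. Without R213G bleomycin replicate 3 and WT bleomycin replicate 1, an alternative chosen after seeing the data, 35 miRNAs (4.28%) had an unadjusted p under 0.05 and again 0 passed. Below, "without the 2 libraries" means this alternative, and its value is given where it changes a sign or moves a difference by over 1.5 times. Without them 363 of the 818 were higher and 455 lower, with a median of -0.03.

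The 3 smallest p-values belonged to miRNAs of the Htr2c introns, which are best known from brain and choroid plexus. All 9 tested members of this list were higher by value in R213G lungs, 8 of them at an unadjusted p under 0.05 (6.60% of all tested were higher at that p), and in 6 the groups did not overlap (3.06% of all tested, with R213G higher). None of the 9 passed after adjustment. The list was chosen with earlier results of these data known, and most members share a hairpin with another member. The shares over all tested miRNAs are thus no test of the list. The median difference over the list was 0.70, beside -0.01 over all tested miRNAs, and without the 2 libraries above it was 0.80, with 7 at an unadjusted p under 0.05. Of the 10 miRNAs on the list, miR-764-5p is the one with no value here.

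The most abundant of them was miR-1298-5p. Its levels were 10.53, 10.51, 10.48 and 10.64 in R213G bleomycin libraries 1 to 4, and 10.14, 10.00, 10.03 and 9.60 in WT bleomycin libraries 1 to 4. All 4 R213G libraries lay above all 4 WT libraries, and they lay close together. The difference was 0.59 ± 0.13 (SE; 95% interval 0.31 to 0.88, adjusted p = 0.219 in limma). The 3 WT PBS libraries held 11.84, 11.93 and 11.41 and the R213G PBS libraries 11.76, 12.15, 11.86 and 11.98. Both PBS groups thus lay above both bleomycin groups and overlapped each other, with a genotype difference of 0.21 (unadjusted p = 0.171). The interaction was 0.39 (adjusted p = 0.611).

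The other strand of that hairpin, miR-1298-3p, was at 5.87, 5.73, 5.86 and 5.84 in R213G and at 5.59, 5.01, 5.13 and 4.77 in WT bleomycin lungs. Again the groups did not overlap, with a difference of 0.70 ± 0.16 (SE, adjusted p = 0.219). This miRNA passed the test when WT bleomycin replicate 1, its highest WT library, was left out (0.85, adjusted p = 0.0217). Both strands passed under array weights, which let limma give unlike libraries less weight (0.68 for miR-1298-5p and 0.81 for miR-1298-3p, both with an adjusted p of 0.0167). Without R213G bleomycin replicate 3 and WT bleomycin replicate 1 together, the differences were 0.68 and 0.84 and neither passed.

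The widest difference of the list was in miR-1912-5p, at 5.47, 4.71, 4.71 and 4.88 in R213G and 2.64, 4.09, 3.48 and 3.89 in WT bleomycin lungs. Its WT libraries were spread and its lowest value came from WT replicate 1. The difference was 1.41 ± 0.35 (SE, adjusted p = 0.221), and 1.20 without the 2 libraries. Its partner miR-1912-3p was at 5.56, 5.36, 5.58 and 5.42 against 4.77, 4.80, 4.73 and 4.42, with a difference of 0.80 ± 0.22 (SE, adjusted p = 0.232). The groups of both strands were fully apart.

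Next along the gene, miR-1264-5p had values of 4.70, 3.96, 3.71 and 4.06 in R213G and 3.30, 3.38, 3.44 and 3.11 in WT, without overlap, and a difference of 0.80 ± 0.23 (SE). For miR-1264-3p the R213G values were 7.20, 6.84, 7.16 and 7.10 and the WT values 6.45, 6.57, 6.84 and 5.98. Here R213G replicate 2 met WT replicate 3, so the groups overlapped, and the difference was 0.61 ± 0.18 (SE). At miR-448-3p, levels of 6.54, 6.79, 6.88 and 6.97 stood against 6.29, 6.37, 6.46 and 5.75, a difference of 0.58 ± 0.17 (SE). These 3 miRNAs had the same adjusted p of 0.232.

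At the bottom of the range, miR-448-5p was at 2.51, 0.45, 2.26 and 2.00 in R213G and 0.06, 0.84, 1.21 and 0.00 in WT bleomycin lungs, and R213G replicate 2 lay among the WT values. Its difference was 1.28 ± 0.47 (SE, adjusted p = 0.387), and in PBS lungs the sign was opposite, at -0.60. In no bleomycin library was miR-448-5p above the value of 5 used as the limit, so it was tested only through PBS libraries. It still counts among the members with an unadjusted p under 0.05. For miR-764-3p the values were 3.45, 4.14, 3.54 and 3.69 against 3.30, 3.60, 3.06 and 3.11, which overlap (0.44 ± 0.23, SE; adjusted p = 0.501). After PBS the median difference of the 9 was 0.20, beside 0.025 over all tested miRNAs. All members but miR-448-5p were higher by value in R213G after PBS too. One more tested miRNA, miR-3552, lies within the span of Htr2c but was not on the list and was looked up after the list's values were seen. It differed by 0.18 ± 0.42 (SE, adjusted p = 0.902), and by 0.28 without the 2 libraries.

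**Figure D2:**
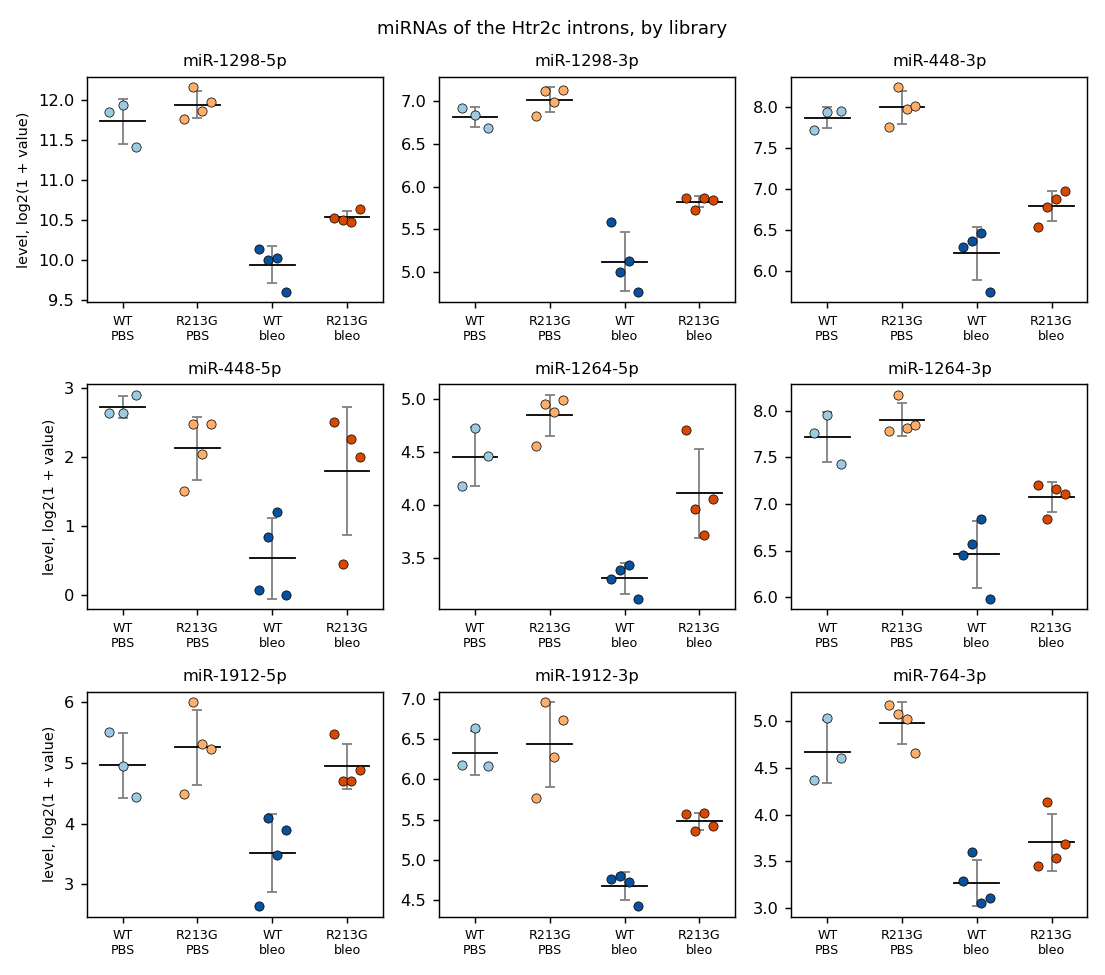
Levels of the 9 tested Htr2c-intron miRNAs (vertical axis, log2(1 + value)) in the 4 groups of libraries. Each point is 1 library, black lines are group means and grey bars 1 SD. In 6 of the 9 panels the 4 R213G bleomycin libraries lie above the 4 WT bleomycin libraries, and for miR-1298-5p both lie below the PBS groups.

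The share of the whole library that these 9 miRNAs took was small. It ran from 0.00872% to 0.0111% of the summed values in R213G bleomycin libraries and from 0.00481% to 0.00684% in WT bleomycin libraries. In PBS lungs it was 0.0164% to 0.0192% (WT) and 0.0179% to 0.0247% (R213G). Such sums mostly reflect the most abundant member, miR-1298-5p. Its mean level over the bleomycin libraries was 10.24, and that of the next, miR-1264-3p, was 6.77. In a whole lung, a change in the number of cells of a type and a change in RNA per cell cannot be told apart. With the libraries split by tag order, the difference was positive in 9 of 9 members in the lower tags and in 9 of 9 in the higher tags. Each part held 2 libraries a genotype. For the 6 members whose groups did not overlap, any such split must give a positive difference, so it adds nothing for them. Strands of the same hairpin are not separate evidence either. Of the 56 named miRNAs, 43 had the same sign in both parts. That count has the same limit where groups did not overlap, and many were named for a small p in these libraries. The serotonin receptor transcript itself was not measured here.

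Because Htr2c is on chromosome X, the rest of that chromosome is given beside it. Of 688 tested miRNAs with a RefSeq position, 81 lie on X, and 55 of them were higher and 26 lower in R213G. Without the miRNAs of the Htr2c list there were 48 higher and 26 lower of 74, with a median of 0.07. These 74 still include miR-3552, which lies within Htr2c but was not on the list. On the autosomes 276 were higher and 331 lower, with a median of -0.02. At an unadjusted p under 0.05, 3 of the 74 were higher and 0 lower, and of the 607 autosomal miRNAs 32 were higher and 32 lower. Without the 2 libraries 44 of the 74 were higher and 30 lower, with a median of 0.02, and 0 had an unadjusted p under 0.05. The part of sex in these values was not tested.

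A second set that was higher by value in R213G lungs was the red cell miRNAs. In this list were miR-451a and miR-144, which are made from 1 transcript in erythroid cells, and miR-486, which red cells and muscle make. All 7 tested members were higher, 6 at an unadjusted p under 0.05 (background 6.60% for higher), and 0 passed after adjustment. Their median difference was 0.92, or 0.72 without R213G bleomycin replicate 3 and WT bleomycin replicate 1. Without those libraries 1 of the 7 had an unadjusted p under 0.05. The erythroid list too was chosen with earlier results of these data known, so the background is no test of it. By sign, the X-linked germline list was also higher in 7 of 7 tested members, with a median of 0.18 and 0 at an unadjusted p under 0.05. The let-7 and miR-98 list was higher in 8 of 9, with a median of 0.08. Without the same libraries it had 5 higher and 4 lower, with a median of 0.0003.

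The level of miR-451a was 14.17, 14.63, 16.08 and 13.91 in R213G and 13.08, 13.54, 13.18 and 12.81 in WT bleomycin lungs. The groups did not overlap, and R213G replicate 3 stood well above the rest. The difference was 1.55 ± 0.44 (SE; 95% interval 0.62 to 2.47, adjusted p = 0.232), and 1.06 without the 2 libraries. In PBS lungs it was 15.20, 14.58 and 15.78 in WT and 15.91, 14.91, 15.95 and 14.11 in R213G, with a genotype difference of 0.03. The interaction was 1.51 with an adjusted p of 0.601.

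Its neighbour miR-144-3p had values of 8.97, 9.35, 11.23 and 8.82 in R213G and 7.27, 9.17, 8.02 and 7.69 in WT bleomycin lungs. WT replicate 2 reached into the R213G range, and the difference was 1.56 ± 0.51 (SE, adjusted p = 0.321), or 0.75 without the 2 libraries. For miR-144-5p it was 0.86 ± 0.37 (SE) and for miR-486a-5p 0.92 ± 0.38 (SE), both with an adjusted p of 0.387 and overlapping groups. The strands of miR-486a and miR-486b are near-identical copies, and reads can be split between them, so their values are not separate evidence. In a flushed lung these miRNAs also depend on how much blood is left. They made up 0.348% to 1.10% of the sum in R213G and 0.207% to 0.299% in WT bleomycin lungs, against 0.652% to 1.9% in WT PBS and 0.625% to 1.76% in R213G PBS lungs. The part of retained blood in the genotype differences was not tested.

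**Figure D3:**
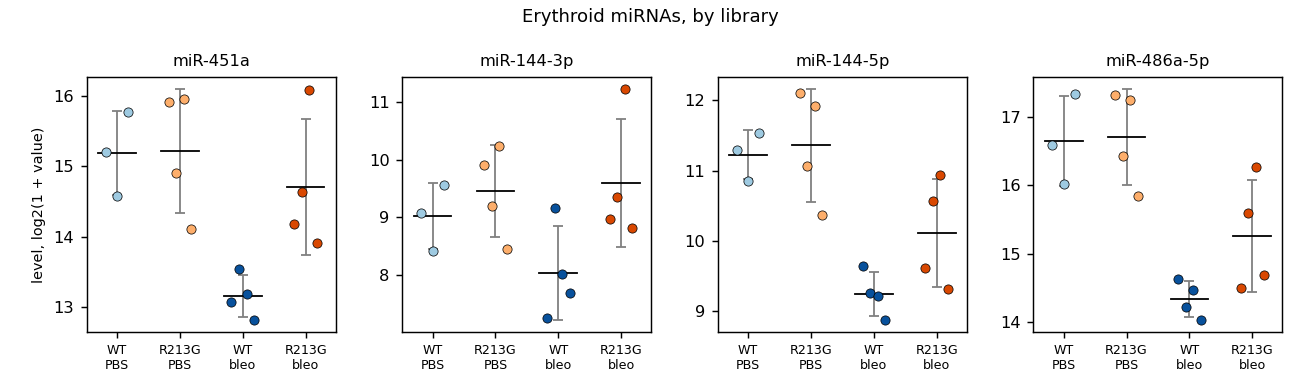
Levels of 4 erythroid miRNAs (vertical axis, log2(1 + value)) in the 4 groups. Points are libraries, black lines means and grey bars 1 SD. For miR-451a the R213G bleomycin points lie above the WT bleomycin points, with the highest at 16.08, and for the other 3 the groups overlap.

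The 8 lower miRNAs with the smallest p were mostly scarce, and none passed. They included miR-423-3p, abundant in many tissues, whose levels were 12.58, 12.82, 12.33 and 12.66 in R213G and 13.49, 12.84, 12.99 and 13.03 in WT. R213G replicate 2 came within a few hundredths of WT replicate 2 but stayed below it. The difference was -0.49 ± 0.14 (SE, adjusted p = 0.232), and -0.27 without the 2 libraries. Its partner miR-423-5p differed by -0.31 ± 0.11 (SE, adjusted p = 0.387), and by -0.16 without them.

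From the imprinted Dlk1-Dio3 region, miR-369-5p was at 4.82, 5.58, 5.57 and 5.07 in R213G and 6.43, 5.92, 6.22 and 5.73 in WT, without overlap (-0.81 ± 0.23, SE; adjusted p = 0.232). Its partner miR-369-3p differed by 0.02 ± 0.20 (SE), and by -0.05 without the 2 libraries. The scarce miR-6956-3p was at 2.86, 3.17, 2.94 and 3.55 in R213G and 4.20, 3.64, 4.06 and 4.38 in WT (-0.94 ± 0.24, SE; adjusted p = 0.221). Near the floor, miR-344b-3p was at 0.09, 1.21, 1.80 and 1.32 in R213G and 2.76, 2.70, 2.44 and 2.61 in WT (-1.53 ± 0.52, SE; adjusted p = 0.379). Intervals were widest at such levels, and with a pseudocount of 5 in place of 1 the difference of miR-344b-3p was -0.70. The other 4, miR-8111, miR-3074-1-3p, miR-7213-3p and miR-5107-3p, differed by -0.81, -0.50, -1.04 and -0.68. For miR-5107-3p it was -0.34 without the 2 libraries.

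Among the miRNAs that mark lung injury, no genotype difference was detected. The fibrosis-linked miR-21a-5p was at 19.86, 19.89, 20.14 and 19.91 in R213G and 19.67, 20.01, 19.85 and 20.10 in WT bleomycin lungs, against 17.75 to 18.39 in all PBS lungs. The groups overlapped, and the difference was 0.05 (95% interval -0.23 to 0.33, adjusted p = 0.909). Its sign changed when either of the 2 libraries above was left out. The other strand, miR-21a-3p, was at 13.08, 12.81, 12.96 and 12.87 in R213G and 13.37, 13.59, 13.09 and 13.25 in WT, with no overlap and a difference of -0.39 ± 0.15 (SE, adjusted p = 0.387).

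Of the 15 tested NF-kB and inflammation miRNAs, 8 were higher and 7 lower by value, 0 passed, and the median was 0.05, or 0.00 without the 2 libraries. For miR-155-5p, a driver of leukocyte activation, the values were 11.96, 12.02, 12.06 and 11.99 in R213G and 12.24, 12.18, 11.70 and 12.21 in WT (-0.08, 95% interval -0.43 to 0.28). For miR-146a-5p, a brake on NF-kB, they were 15.63, 15.46, 16.04 and 15.27 in R213G and 15.84, 15.54, 15.82 and 15.63 in WT (-0.11, 95% interval -0.43 to 0.22). Both intervals exclude a change of 1 log2 unit in either direction. Without the 2 libraries the differences were -0.04 for miR-155-5p and -0.21 for miR-146a-5p. For miR-147-3p, induced in macrophages by Toll-like receptors, the difference of -0.09 had a wider interval, from -0.93 to 0.76. That interval rests on the spread within the groups of all 15 libraries. The SD of miR-147-3p was 0.07 in R213G and 0.20 in WT bleomycin lungs, against 0.40 in R213G and 1.47 in WT PBS lungs.

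**Figure D4:**
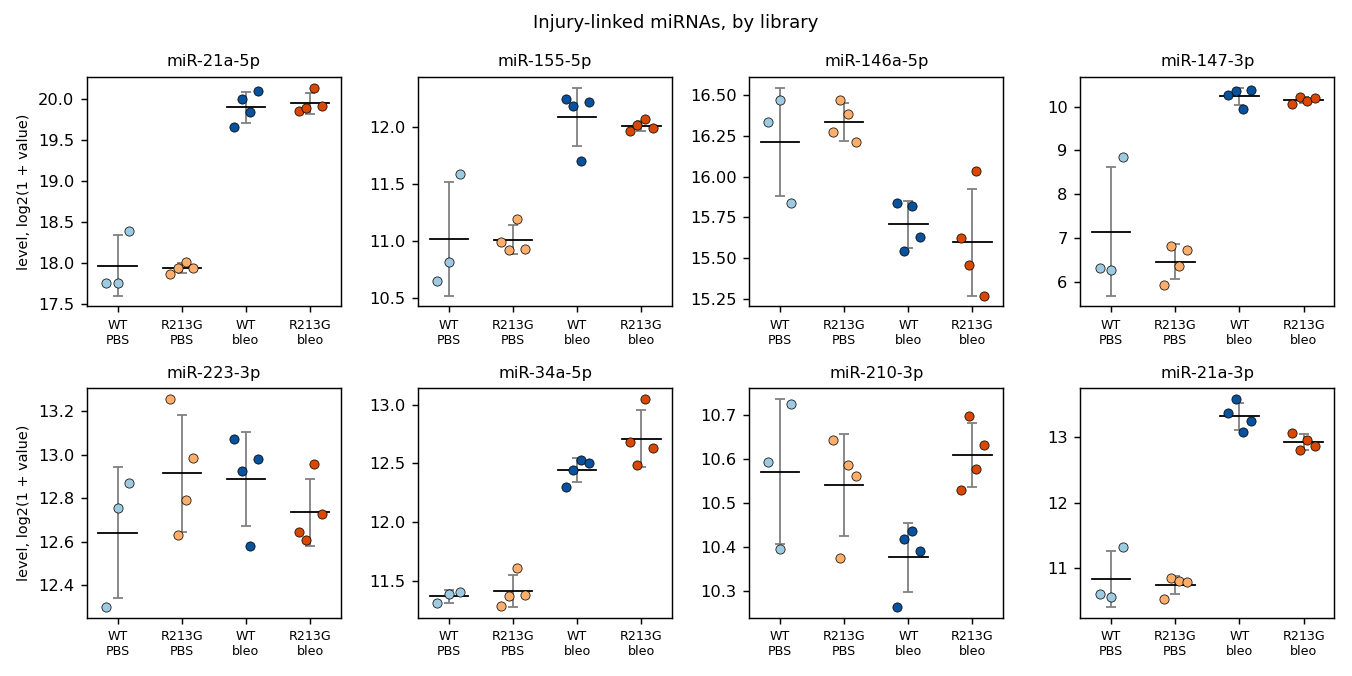
Levels of 8 injury-linked miRNAs (vertical axis, log2(1 + value)) in the 4 groups. Points are libraries, black lines means and grey bars 1 SD. The bleomycin groups of miR-147-3p, miR-146a-5p, miR-155-5p and miR-21a-5p overlap, whereas those of miR-21a-3p and miR-210-3p do not.

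In the list of p53, hypoxia and oxidant-response miRNAs, 8 of 11 were higher by value and 0 passed, with a median of 0.16. Without the 2 libraries 5 were higher and 6 lower, with a median of -0.01. The p53 target miR-34a-5p was at 12.68, 12.49, 13.05 and 12.63 in R213G and 12.30, 12.45, 12.53 and 12.50 in WT (0.27 ± 0.11, SE; adjusted p = 0.387), and 0.11 without them. The hypoxia-induced miR-210-3p was at 10.53, 10.70, 10.58 and 10.63 in R213G and 10.26, 10.42, 10.44 and 10.39 in WT. These groups did not overlap, the difference was 0.23 ± 0.10 (SE, adjusted p = 0.387), and without the 2 libraries it was 0.21. The scarcer strand of that hairpin, miR-210-5p, went the opposite way, at -0.61 ± 0.26 (SE, adjusted p = 0.387), and at -0.16 without the 2 libraries. Its groups overlapped.

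The growth-linked cluster miR-17 to miR-92a and its relatives had 10 of 15 members higher by value, 0 of which passed. The median was 0.12, or 0.04 without the 2 libraries. The member with the widest difference was miR-18a-5p, at 11.49, 11.02, 12.41 and 11.57 in R213G and 9.14, 11.28, 10.71 and 10.89 in WT. WT replicate 1 was far below the others, and the difference was 1.12 ± 0.42 (SE, adjusted p = 0.387), and 0.40 without the 2 libraries. The other strand of the same hairpin, miR-18a-3p, pointed the opposite way, with -0.34 ± 0.14 (SE).

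**Figure D5:**
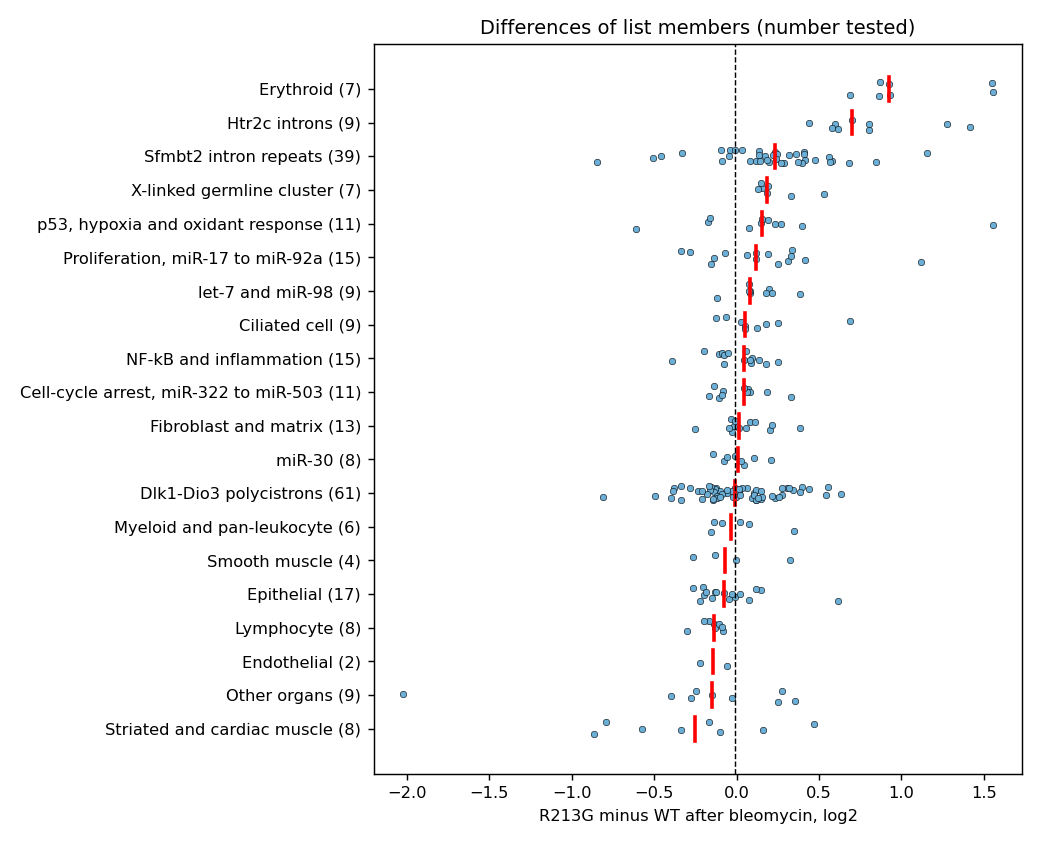
Differences between R213G and WT bleomycin lungs (horizontal axis, log2) of the tested members of 20 miRNA lists (vertical axis, number tested in brackets). Points are miRNAs spread vertically for visibility, red bars are list medians and the dashed line is the median of all 818. The erythroid and Htr2c lists, with medians of 0.92 and 0.70, lie apart from the dashed line.

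Lists that mark cell types showed no member passing. Lymphocyte miRNAs were lower in 8 of 8 by value, with a median of -0.14. Without the 2 libraries 6 were lower and 2 higher, with a median of -0.05. Among them miR-150-5p, abundant in mature lymphocytes, was at 15.71, 16.10, 15.47 and 15.85 in R213G and 16.47, 15.99, 15.94 and 15.95 in WT (-0.30, adjusted p = 0.435), with WT replicate 1 the highest. The difference was -0.07 without the 2 libraries. In PBS lungs its difference was 0.46, and the interaction of -0.76 had an adjusted p of 0.523. Myeloid miRNAs were split 3 and 3, with miR-223-3p of neutrophils at -0.15 and miR-511-3p of macrophages at 0.35, or 0.14 without the 2 libraries.

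The endothelial miR-126a-3p, one of the most abundant lung miRNAs, was at 19.20, 18.81, 19.15 and 18.56 in R213G and 19.09, 19.11, 19.24 and 19.16 in WT (-0.22, 95% interval -0.50 to 0.05). Of 17 epithelial miRNAs 12 were lower by value, among them miR-429-3p (-0.26, adjusted p = 0.387), and the median was -0.08, or -0.12 without the 2 libraries. Ciliated cell miRNAs were higher in 7 of 9, with a median of 0.05, but without the 2 libraries all 9 were lower, with a median of -0.14. Of 13 fibroblast and matrix miRNAs 7 were higher, with a median of 0.01. Without the 2 libraries 4 were higher and the median was -0.08. In that list the collagen repressors miR-29a-3p, miR-29b-3p and miR-29c-3p differed by -0.05, 0.22 and -0.04, and by -0.19, -0.14 and -0.22 without them.

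Muscle and other-organ miRNAs went in both directions, and 0 passed. Of 8 muscle miRNAs 6 were lower by value, with a median of -0.25, or -0.78 without the 2 libraries. The muscle miRNA miR-133a-3p was at 11.72, 12.18, 12.71 and 12.94 in R213G and 13.28, 12.85, 13.72 and 13.16 in WT (-0.87 ± 0.39, SE; adjusted p = 0.387), with overlap at R213G replicate 4. In the opposite direction, the cardiac miR-208b-3p was at 9.60, 9.47, 9.79 and 9.25 in R213G and 8.76, 9.17, 9.23 and 9.07 in WT (0.47 ± 0.15, SE; adjusted p = 0.303), and without the 2 libraries it differed by 0.28. Its PBS difference was 0.36, of the same sign. The liver miRNA miR-122-5p had the largest difference of all 818 by value, -2.02 ± 1.25 (SE, adjusted p = 0.555), or -1.26 without the 2 libraries. Its levels were 8.96, 4.24, 4.65 and 5.01 in R213G and 8.97, 7.0, 6.95 and 8.03 in WT, so that R213G replicate 1 lay beside the top WT library. It was singled out after its values were seen.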

How the data were processed

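The authors sequenced small RNA from whole lungs. Per the submitters' processing notes, Bowtie2 2.3.2, SAMtools 1.9 and edgeR were used; genome build and miRBase release: not given in the sources used here. The deposited table holds log2 values per library. From their low end they look like log2(1 + count) with library sizes made equal, an inference, since the table's name mentions RPKM. Read counts could not be recovered, so the count test that had been planned was not run. The authors' deposited fold, p-value and q-value columns were not used. limma 3.58.1 (R 4.3.3) was fitted to all 15 libraries, with group means and an intensity trend, and Benjamini-Hochberg adjustment over 818 miRNAs in each of 3 contrasts (genotype after bleomycin, genotype after PBS and their interaction). The procedure was checked on simulated data with independent noise for each miRNA and library. That check does not cover differences that many miRNAs of a library share. The smallest adjusted p was 0.622 after PBS and 0.399 for the interaction.

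Named miRNAs were, since fewer than 8 passed in a direction, the 8 per direction with the smallest p, 2 per list, and 8 fixed by name. Partner strands of named miRNAs, miR-764-3p, miR-486a-5p, the miR-29 family, miR-3552 and miR-122-5p were chosen after their values were seen. The miRNAs and lists were chosen with earlier results of these data known. RefSeq held entries for 688 of 818 tested miRNAs and for 43 of the 63 whose sequence was looked up. Host genes come from GENCODE M21. Alternatives covered the filter, pseudocount, scaling, trend, array weights, replicate and tag order terms, the compared groups alone, an adjusted p under 0.1 and leaving out libraries.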

Additional observations from a re-analysis of the deposited data

Results flagged for a closer look

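Of 112 groups of 4 libraries checked for a single distant library (56 named miRNAs in each bleomycin group), 3 held one; chance gives about 1 in 20. WT bleomycin replicate 1 held 16.47 for miR-150-5p, a lymphocyte miRNA, where the other 3 libraries held 15.94 to 15.99. The same library held 17.43 for let-7c-5p against 17.84 to 17.90 in the other 3. WT bleomycin replicate 3 held 11.70 for miR-155-5p against 12.18 to 12.24.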

How the results depend on the processing

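No miRNA passed after bleomycin under the filters, pseudocount, scalings, tag order term, compared groups alone or an adjusted p under 0.1. Array weights gave 2, and leaving out 1 library gave 0 to 1. Unadjusted p-values under 0.05 numbered 50 to 116 over the left-out libraries, with 50 without R213G bleomycin replicate 3 and 55 without WT bleomycin replicate 1. After PBS and for the interaction the count stayed 0 in every setting run. With a replicate block the count after bleomycin was also 0 (96 at an unadjusted p under 0.05). Same-numbered bleomycin libraries deviated together by low correlations of 0.10, -0.11, 0.22 and 0.08. The best WT match of R213G replicates 1, 3 and 4 was still the same-numbered library, and that of replicate 2 was WT replicate 1. Whether the numbers pair the libraries cannot be told from these values. Of 1058 values of the 56 named miRNAs under alternatives, 1047 kept their direction and side of the threshold, 3 newly passed and 8 changed sign; the cause was not tested. Those 8 were miR-126a-5p (0.0126 with quantile normalization), miR-146a-5p (0.0002 without R213G bleomycin replicate 4), miR-34c-5p (-0.032) and miR-34b-5p (-0.13), both without R213G bleomycin replicate 3 and WT bleomycin replicate 1, and miR-21a-5p (-0.031 with array weights, -0.0181 and -0.0331 without the first or the second of these libraries, and -0.0976 without both). Leaving out 1 library or these 2, values ran from -0.2555 to 0.0002 for miR-146a-5p, from -0.0976 to 0.1107 for miR-21a-5p, from -0.032 to 0.2773 for miR-34c-5p and from -0.13 to 0.3735 for miR-34b-5p. Low levels limit what could be seen, as the wider intervals there show.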

Other observations

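The strands of a hairpin often differed in direction between the genotypes. Of 234 hairpins with both strands tested, 123 (52.6%) had differences of the same sign, and across them the 2 strands' differences had a Pearson r of 0.37. With both strands above a level of 8 there were 74 hairpins, 38 (51.4%) with the same sign and an r of 0.40. Without R213G bleomycin replicate 3 and WT bleomycin replicate 1, the same sign was found in 141 of 234 (60.3%) and 47 of 74 (63.5%), with an r of 0.42 and 0.43. These are descriptions across hairpins that share libraries. For the smooth muscle miR-145a, the 5p strand differed by 0.32 and the 3p strand by -0.26, or 0.16 and -0.32 without those 2 libraries. For miR-98 the 5p strand differed by 0.39 and the 3p strand by -0.16, or 0.08 and -0.20 without them.

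The families miR-297, miR-466, miR-467 and miR-669 are known as repeated miRNAs of an intron of Sfmbt2. Their members were taken by name, and whether each lies in that intron was not checked. They were higher by value in 30 of 39 tested members, with a median of 0.23 after bleomycin and 0.37 after PBS. Without R213G bleomycin replicate 3 and WT bleomycin replicate 1 the median after bleomycin was 0.15. These miRNAs are near copies of each other, and 0 passed. One of them, miR-466b-3p, had the smallest interaction p, at -1.78 (adjusted p = 0.399), from a difference of -0.85 after bleomycin and 0.93 after PBS. Of the Dlk1-Dio3 miRNAs 29 were higher and 32 lower, with a median of -0.01.

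The relation to base content differed between libraries. Over 260 miRNAs above a level of 8 with a RefSeq sequence, the genotype difference had a Spearman correlation with GC content of -0.24, and of 0.14 without R213G bleomycin replicate 3 and WT bleomycin replicate 1. The deviations of those libraries from the mean of the 8 had correlations of -0.38 and 0.38, and those of the other libraries ran from -0.21 to 0.17. Both of those libraries carry lower tags. For the genotype difference the correlation was -0.37 in the lower tags alone and 0.24 in the higher tags alone. The part of GC content in single differences was not tested.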
